A study of Arabidopsis thaliana with 18 samples.

Results

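Lines of Arabidopsis thaliana that lack different steps of the same protein degradation pathway were compared with each other: ate1 ate2, which carries mutations in both genes for arginyl transferases, and prt6-1, a mutant of the ubiquitin ligase gene PRT6. The comparison used the 8 seedling arrays of these lines, chosen by genotype label, out of 18 arrays in the series. Whole seedlings aged 7 days, grown with 16 h of light per day, were kept for 2 h under argon (hypoxia) or in air. ate1 ate2 was represented by 2 arrays under hypoxia and 2 in air, prt6-1 likewise, and the wild type Col-0, given beside them as the background level, likewise. The remaining 6 arrays came from seeds imbibed for 24 h, 3 of prt6-1 and 3 of Col-0, and served as a second, separate set of prt6-1 values. The labels name no alleles for ate1 ate2 and a single line for each mutant, so the missing enzyme and any other difference between the lines cannot be told apart. Replicates were separate biological experiments, per the design text.

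The N-end rule pathway, by its arginine branch, destroys proteins according to their first amino acid. Amidases convert asparagine and glutamine at the N terminus to acids, oxygen prepares N-terminal cysteine, the ATE1 and ATE2 transferases add arginine to these residues, and PRT6 recognises the arginine and marks the protein with ubiquitin. Transcription factors of ERF group VII, which switch on the transcripts of the hypoxia response, are the best known substrates in plants, and seeds that lack the branch germinate and mobilise their oil differently from wild type. Comparing ate1 ate2 with prt6-1 asks which transcripts differ when arginine is never added and when added arginine is not read by PRT6.

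Levels are log2 values made by the submitters with RMA, so a difference of 1 is a 2-fold difference, and a positive difference means higher in ate1 ate2. Of 22746 probe sets tested, 13513 carried exactly 1 gene name. PRT6, ATE1, ATE2 and the ERF group VII genes had no named probe set in the table used and were not analysed here, so the mutated genes could not serve as a check of the labels. Mutant arrays of 1 group correlated at 0.9952 to 0.9974 across probe sets, and other pairs of mutant arrays at 0.9904 to 0.9965. The first principal component of the 8 arrays (41.3% of the variance) separated hypoxia from air, and the second (16.9%) separated the lines, with ate1 ate2 arrays at -12.3 to -3.1 and prt6-1 arrays at 2.3 to 16.4. Leaf transcripts were near the top of the scale on all 12 seedling arrays: RCA, which encodes rubisco activase, lay between 14.32 and 14.39. The arrays measured whole seedlings, so more cells of a type and more RNA per cell cannot be told apart.

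The 2 mutants had very similar transcript levels. With air or hypoxia as a covariate, limma called 126 of 22746 probe sets (0.554%), 68 higher in ate1 ate2 (0.299%) and 58 lower (0.255%), at an adjusted p under 0.05. The median absolute difference over all probe sets was 0.0669 log2 units, and the 95% interval of the difference lay within 0.5 log2 units of 0 for 96.4% of probe sets and within 1 for 99.8%. All 126 calls had the genotypes fully separated, in the same direction, both under hypoxia and in air, a separation found in 2068 of all probe sets (9.09%). Only 13 calls reached 2-fold, 8 higher and 5 lower in ate1 ate2. For scale, a fit of the 12 seedling arrays called 161 probe sets between the mutants, 1622 between ate1 ate2 and Col-0 (7.13%) and 2173 between prt6-1 and Col-0 (9.55%), comparisons that share arrays with each other. Of these, 750 were higher (3.30%) and 872 lower (3.83%) in ate1 ate2, and 847 were higher (3.72%) and 1326 lower (5.83%) in prt6-1.

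**Figure D1:**
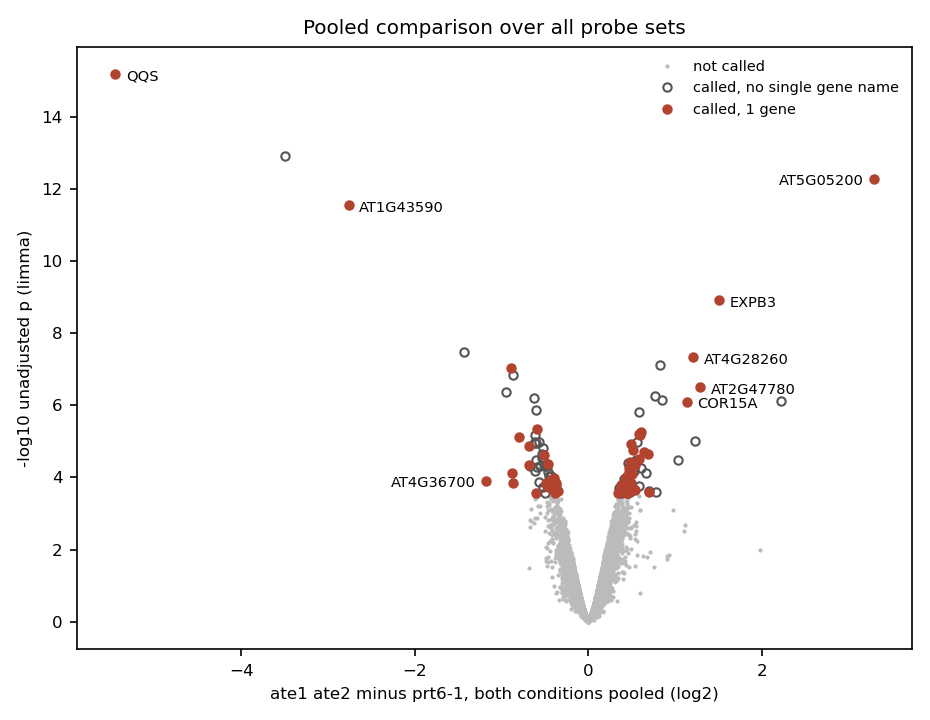
Difference between ate1 ate2 and prt6-1 (x axis, log2, both conditions pooled) against the -log10 unadjusted p from limma (y axis) for each of the 22746 probe sets, with calls of 1 gene filled, other calls open and the 8 named calls of at least 2-fold labelled. Most points lie close to 0, and QQS at -5.45 and AT5G05200 at 3.30 stand farthest out among named probe sets.

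Of the 126 calls, 60 were probe sets of 1 gene, 35 of them higher and 25 lower in ate1 ate2. Another 2 calls carried several gene names and 64 none, and these ranged from -3.49 to 2.23. Genes that the tables used give only as a locus code are named by that code, with no role.

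The largest named difference was in QQS, a gene found only in Arabidopsis that affects starch content and the division of carbon and nitrogen between starch and protein. Under hypoxia QQS had 5.87 and 5.41 in ate1 ate2, against 11.22 and 11.04 in prt6-1 and 5.83 and 6.18 in Col-0. In air it had 5.47 and 5.36 in ate1 ate2, against 10.71 and 10.92 in prt6-1 and 5.94 and 6.16 in Col-0. All 4 prt6-1 arrays were high, while ate1 ate2 lay among or below the Col-0 arrays. QQS averaged 5.52 ± 0.23 in ate1 ate2 and 10.97 ± 0.22 in prt6-1 (SD, n = 4 each), 43.7-fold lower in ate1 ate2 (log2 difference -5.45, SE 0.10, adjusted p = 1.53e-11). Against Col-0, over both conditions, ate1 ate2 differed by -0.50 (adjusted p = 0.0124) and prt6-1 by 4.95 (adjusted p = 8.21e-13).

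AT1G43590, which RefSeq lists as a pseudogene, was also high in prt6-1 alone. It had 5.51 and 5.77 in ate1 ate2 under hypoxia, against 8.60 and 8.30 in prt6-1 and 6.01 and 6.23 in Col-0. The air values were 5.65 and 5.28 in ate1 ate2, against 8.13 and 8.22 in prt6-1 and 5.49 and 5.96 in Col-0. Only the prt6-1 arrays were raised, and the transcript was 6.77-fold lower in ate1 ate2 (-2.76, SE 0.10, adjusted p = 1.63e-08). Its difference from Col-0 was -0.37 in ate1 ate2 (adjusted p = 0.0806) and 2.39 in prt6-1 (adjusted p = 7.58e-09).

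AT4G36700 was the third named transcript at least 2-fold lower in ate1 ate2. It had 5.73 and 5.69 in ate1 ate2 under hypoxia, against 7.02 and 6.96 in prt6-1 and 5.97 and 5.81 in Col-0, and in air 6.02 and 7.31 in ate1 ate2, against 7.45 and 8.01 in prt6-1 and 5.62 and 5.87 in Col-0. The ate1 ate2 replicates in air lay far apart, and 1 of them came close to the lower prt6-1 array. The pooled difference was -1.18 (SE 0.21, adjusted p = 0.0351), and the call was lost without any 1 of the 4 prt6-1 arrays or either ate1 ate2 hypoxia array (adjusted p 0.0532 to 0.13), and in a fit of all 18 arrays (adjusted p = 0.251) or with a robust prior (adjusted p = 0.0516).

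AT5G05200 was the transcript most raised in ate1 ate2 relative to prt6-1 among named probe sets. It had 10.44 and 10.26 in ate1 ate2 under hypoxia, against 7.31 and 7.25 in prt6-1 and 10.31 and 10.32 in Col-0. In air it had 10.39 and 10.39 in ate1 ate2, against 6.70 and 7.03 in prt6-1 and 10.45 and 10.22 in Col-0. The prt6-1 arrays were the low ones, and ate1 ate2 overlapped Col-0. Means were 10.37 ± 0.08 in ate1 ate2 and 7.07 ± 0.28 in prt6-1 (SD, n = 4 each), 9.82-fold higher in ate1 ate2 (3.30, SE 0.11, adjusted p = 4.01e-09). Against Col-0 the differences were 0.04 in ate1 ate2 (adjusted p = 0.862) and -3.25 in prt6-1 (adjusted p = 6.69e-12).

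EXPB3 encodes a beta-expansin, a protein that loosens cell walls. It had 9.89 and 10.02 in ate1 ate2 under hypoxia, against 8.13 and 8.37 in prt6-1 and 10.42 and 10.23 in Col-0. The values in air were 9.94 and 9.95 in ate1 ate2, against 8.59 and 8.66 in prt6-1 and 10.39 and 10.13 in Col-0. The prt6-1 arrays were again lowest, and ate1 ate2 lay just below Col-0. EXPB3 was 2.85-fold higher in ate1 ate2 than in prt6-1 (1.51, SE 0.09, adjusted p = 5.64e-06), with differences from Col-0 of -0.34 in ate1 ate2 (adjusted p = 0.0252) and -1.85 in prt6-1 (adjusted p = 2.9e-09).

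AT4G28260, the next protein-coding gene to EXPB3 in the gene order of assembly TAIR10.1, had 9.16 and 9.01 in ate1 ate2 under hypoxia, against 8.01 and 8.08 in prt6-1 and 9.23 and 9.14 in Col-0. In air it had 9.05 and 8.73 in ate1 ate2, against 7.63 and 7.37 in prt6-1 and 8.81 and 8.85 in Col-0. It was 2.32-fold higher in ate1 ate2 (1.21, SE 0.10, adjusted p = 0.000152). The prt6-1 arrays were the low ones, and ate1 ate2 overlapped Col-0: the differences from Col-0 were -0.02 in ate1 ate2 (adjusted p = 0.94) and -1.23 in prt6-1 (adjusted p = 4.15e-07).

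COR15A encodes a chloroplast protein that protects membranes in the cold. It had 6.20 and 6.03 in ate1 ate2 under hypoxia, against 5.22 and 5.32 in prt6-1 and 6.53 and 6.65 in Col-0, and in air 6.81 and 6.94 in ate1 ate2, against 5.65 and 5.25 in prt6-1 and 6.22 and 5.80 in Col-0. All 4 ate1 ate2 arrays exceeded all 4 prt6-1 arrays. The difference was 1.14 (SE 0.12, adjusted p = 0.00106), with differences from Col-0 of 0.20 in ate1 ate2 (adjusted p = 0.363) and -0.94 in prt6-1 (adjusted p = 5.02e-05). The 0.20 averages opposite directions: ate1 ate2 lay below Col-0 under hypoxia and above it in air.

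AT2G47780 was higher in both mutants than in Col-0. It had 7.45 and 8.14 in ate1 ate2 under hypoxia, against 6.61 and 6.51 in prt6-1 and 5.65 and 5.40 in Col-0. Its air values were 7.68 and 7.51 in ate1 ate2, against 6.09 and 6.39 in prt6-1 and 5.21 and 5.90 in Col-0. The 3 genotypes did not overlap in either condition. The transcript was 2.45-fold higher in ate1 ate2 than in prt6-1 (1.29, SE 0.13, adjusted p = 0.000658), and stood above Col-0 by 2.15 in ate1 ate2 (adjusted p = 5.41e-07) and by 0.86 in prt6-1 (adjusted p = 0.00239).

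**Figure D2:**
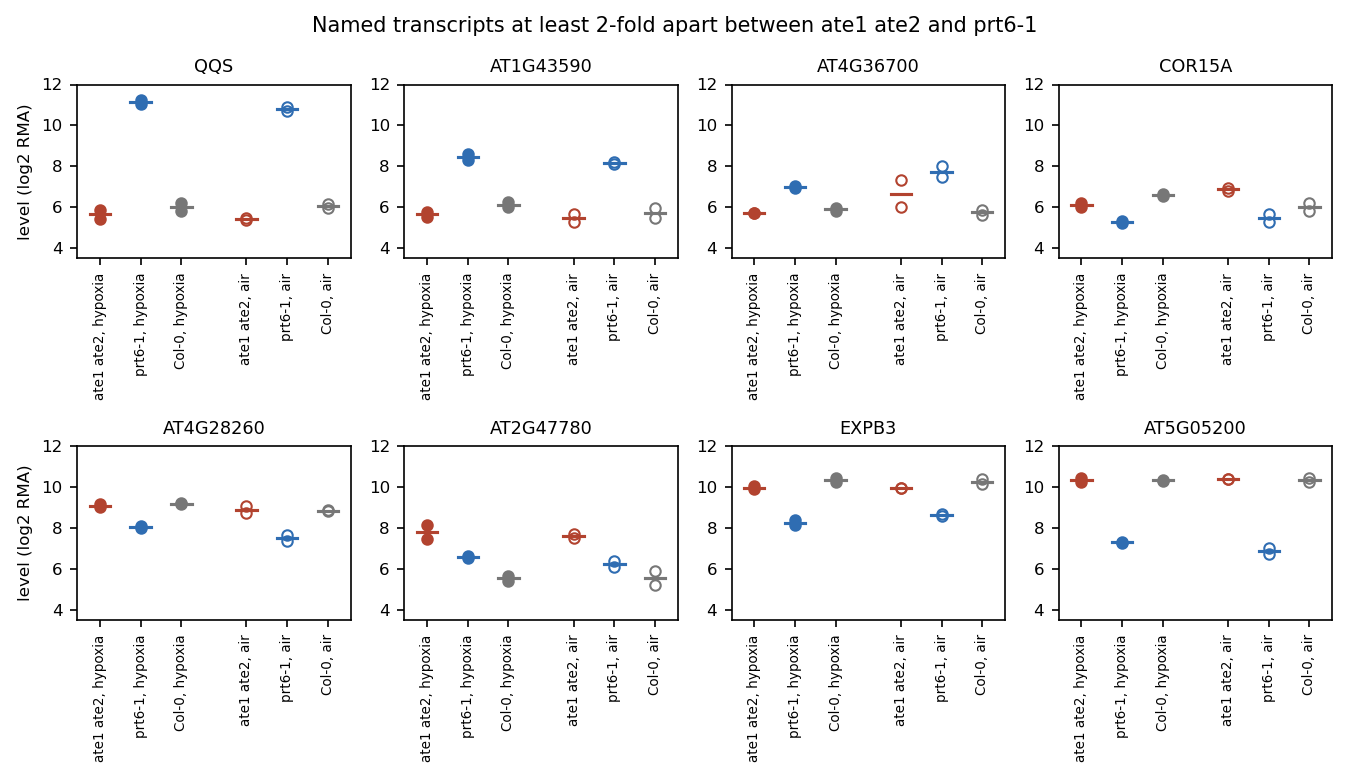
Levels (y axis, log2 RMA) of the 8 named transcripts at least 2-fold apart between the mutants, for ate1 ate2, prt6-1 and Col-0 under hypoxia (filled) and in air (open), with 1 point per array and a line at the mean of 2. QQS, AT1G43590 and AT4G36700 are lower in ate1 ate2 than in prt6-1 and the other 5 are higher, and in AT2G47780 both mutants lie above Col-0.

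Of the 60 named calls, 10 were called in each of the 8 fits that left out 1 array and each of the other 11 fits tried: QQS, AT1G43590, NRPC1, AT5G33370, AT5G26270, AT5G05200, AT4G28260, EXPB3, COR15A and AT2G47780. NRPC1 encodes the largest subunit of RNA polymerase III, which makes transfer RNA and 5S ribosomal RNA. It had 5.52 and 5.53 in ate1 ate2 under hypoxia, against 6.36 and 6.62 in prt6-1 and 5.36 and 5.58 in Col-0, and in air 5.56 and 5.42 in ate1 ate2, against 6.37 and 6.26 in prt6-1 and 5.52 and 5.56 in Col-0. prt6-1 alone was raised, and NRPC1 was lower in ate1 ate2 by a log2 difference of -0.89 (SE 0.08, adjusted p = 0.000227). AT5G33370 (-0.68, SE 0.10, adjusted p = 0.00938) and AT5G26270 (-0.58, SE 0.08, adjusted p = 0.00522) were, on average, highest in Col-0 and lowest in ate1 ate2. Against Col-0, AT5G33370 differed by -1.24 in ate1 ate2 and -0.56 in prt6-1, and AT5G26270 by -0.85 in ate1 ate2 and -0.27 in prt6-1.

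Smaller falls included MCCA and FDH. MCCA encodes a subunit of methylcrotonyl-CoA carboxylase, an enzyme of leucine breakdown in mitochondria. MCCA had 8.44 and 8.33 in ate1 ate2 under hypoxia, against 9.12 and 9.24 in prt6-1, and 8.29 and 8.09 in ate1 ate2 in air, against 9.0 and 8.49 in prt6-1. FDH, formate dehydrogenase, had 10.44 and 10.41 in ate1 ate2 under hypoxia, against 10.86 and 10.91 in prt6-1, and 10.67 and 10.93 in ate1 ate2 in air, against 11.27 and 11.27 in prt6-1. Neither overlapped between the genotypes within a condition, a separation shared by all 126 calls and by 9.09% of all probe sets. The differences were -0.68 for MCCA (SE 0.11, adjusted p = 0.019) and -0.46 for FDH (SE 0.07, adjusted p = 0.019). Both calls were lost without prt6-1 air replicate 1, either prt6-1 hypoxia array or either ate1 ate2 hypoxia array (adjusted p 0.062 to 0.0923 for MCCA and 0.0566 to 0.0849 for FDH). AT3G15450, among the brighter calls, had 11.54 and 11.71 in ate1 ate2 under hypoxia, against 12.50 and 12.31 in prt6-1, and 11.06 and 10.53 in ate1 ate2 in air, against 11.70 and 11.52 in prt6-1. It was lower in ate1 ate2 in both conditions (-0.80, SE 0.11, adjusted p = 0.0071), a call lost in a fit of all 18 arrays (adjusted p = 0.248). AT2G33850 (-0.86), AT5G13240 (-0.50), AT3G07350 (-0.49) and AT4G29030 (-0.48) were also lower, at adjusted p of 0.0138 to 0.0417, and each of these calls was lost without any 1 of 3 to 7 of the 8 arrays.

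Among the smaller rises, ChiC, which encodes a chitinase, had 8.55 and 8.62 in ate1 ate2 under hypoxia, against 8.18 and 8.08 in prt6-1, and 9.16 and 9.11 in ate1 ate2 in air, against 8.37 and 8.37 in prt6-1. Its difference of 0.61 (SE 0.08, adjusted p = 0.00608) was called without each array in turn but not in a fit of all 18 arrays (adjusted p = 0.129). BETA-VPE encodes a vacuolar processing enzyme, a protease that cuts seed storage proteins into their mature form. It had 7.03 and 7.26 in ate1 ate2 under hypoxia, against 6.70 and 6.67 in prt6-1, and 7.62 and 7.34 in ate1 ate2 in air, against 6.81 and 6.70 in prt6-1. The prt6-1 arrays lay close together and below every ate1 ate2 array (0.59, SE 0.09, adjusted p = 0.0173), but the call was lost without prt6-1 air replicate 1, prt6-1 hypoxia replicate 2 or ate1 ate2 hypoxia replicate 2 (adjusted p 0.0535 to 0.0673). AT5G66815 differed by 0.59 (SE 0.08, adjusted p = 0.00651) and was called without each array in turn. Its levels were low, with means of 5.17 in ate1 ate2 and 4.58 in prt6-1. It was not among the calls when the 33.3% dimmest probe sets were left out. AT1G67865 (0.70), AT5G45950 (0.69), AT5G54040 (0.64), AT3G49960 (0.54), AT5G51440 (0.54) and AT3G28220 (0.52) were also higher, at adjusted p of 0.0124 to 0.0488, and each of these calls was lost without any 1 of 2 to 7 of the 8 arrays.

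Of 18 listed genes of the N-end rule machinery 6 were measured, and limma called 0 of these 6 between the mutants, beside 0.554% of all probe sets. The same fit gave 2183 of the probe sets tested an unadjusted p under 0.05. The differences ranged from -0.21 to 0.05 with a median of -0.05, and the 95% intervals of all 6 lay within 0.5 log2 units of 0. AT2G44420, listed as the asparagine amidase at the start of the branch, had 5.98 and 6.09 in ate1 ate2 under hypoxia, against 6.09 and 6.16 in prt6-1, and 5.79 and 5.61 in ate1 ate2 in air, against 6.02 and 6.05 in prt6-1. It was slightly lower in ate1 ate2 in both conditions (-0.21, SE 0.08, adjusted p = 0.363). AT2G41760, listed as the glutamine amidase, differed by -0.09 (interval -0.27 to 0.08, adjusted p = 0.817). The methionine aminopeptidases, which remove the first methionine and so expose the next residue, differed by 0.05 (MAP1A, adjusted p = 0.915), 0.03 (MAP1B, adjusted p = 0.961), -0.17 (MAP1C, adjusted p = 0.534) and -0.01 (MAP1D, adjusted p = 0.988).

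Transcripts listed as hypoxia-responsive differed little between the mutants in the pooled comparison. Of 25 measured genes of 48 listed, 1 was called, higher in ate1 ate2, and 0 lower (0.299% and 0.255% of all probe sets). The median difference was 0.03, beside 0.001 over all probe sets, and the 25 differences ranged from -0.30 to 0.60. All 25 intervals lay within 1 log2 unit of 0, and 21 within 0.5. The called gene was AT3G29970, which had 11.58 and 11.53 in ate1 ate2 under hypoxia, against 10.99 and 10.97 in prt6-1 and 5.91 and 6.09 in Col-0. In air it had 11.26 and 11.59 in ate1 ate2, against 10.83 and 10.76 in prt6-1 and 4.43 and 4.74 in Col-0. Both mutants stood far above Col-0 in both conditions, and ate1 ate2 stood above prt6-1 by 0.60 (SE 0.08, adjusted p = 0.00651). This call was lost in a fit of all 18 arrays (adjusted p = 0.159).

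PDC2 and CML38, chosen after their values were seen, are given as examples from the rest of the list. PDC2, a pyruvate decarboxylase of ethanol fermentation, had 10.33 and 10.31 in ate1 ate2 under hypoxia, against 10.58 and 10.60 in prt6-1 and 10.98 and 10.95 in Col-0, and in air 9.80 and 9.61 in ate1 ate2, against 9.55 and 9.34 in prt6-1 and 9.39 and 8.96 in Col-0. CML38, a calmodulin-like calcium sensor, had 10.75 and 10.60 in ate1 ate2 under hypoxia, against 11.05 and 10.59 in prt6-1 and 10.05 and 10.13 in Col-0, and in air 8.86 and 8.77 in ate1 ate2, against 8.37 and 8.15 in prt6-1 and 5.03 and 4.86 in Col-0. In both genes ate1 ate2 lay above prt6-1 in air and did not lie above it, on average, under hypoxia. The pooled differences were -0.01 for PDC2 (SE 0.11, adjusted p = 0.995) and 0.20 for CML38 (SE 0.14, adjusted p = 0.746).

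The list as a whole, with PDC2 and CML38 among its members, had the same arrangement. No member passed the test in either condition or for the difference between conditions. Under hypoxia 6 of 25 differences were positive and 19 negative (median -0.15), whereas 50.8% of all probe sets were positive (median 0.003). In air 23 of 25 were positive (median 0.26), beside 50.4% of all probe sets (median 0.001). The difference between the conditions was positive in 3 of 25 and negative in 22 (median -0.32), whereas 51.2% of all probe sets were positive (median 0.006). Limma called 0 of the 25 in each of these 3 comparisons. Over all probe sets it called 0.163% under hypoxia, 0.127% in air and 0.00440% for the difference. An unadjusted p under 0.05 was found for 1922 probe sets under hypoxia, 1815 in air and 1389 for the difference. Leaving out each array in turn, between 5 and 8 of the 25 were positive under hypoxia and between 21 and 24 in air, and the pooled count, 16 positive, ranged from 9 to 21. The pooled count was 9 without ate1 ate2 air replicate 2, with a median of -0.02. The genes of this list are known to be regulated together, and they were measured on the same arrays, so their 25 directions are not independent.

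**Figure D3:**
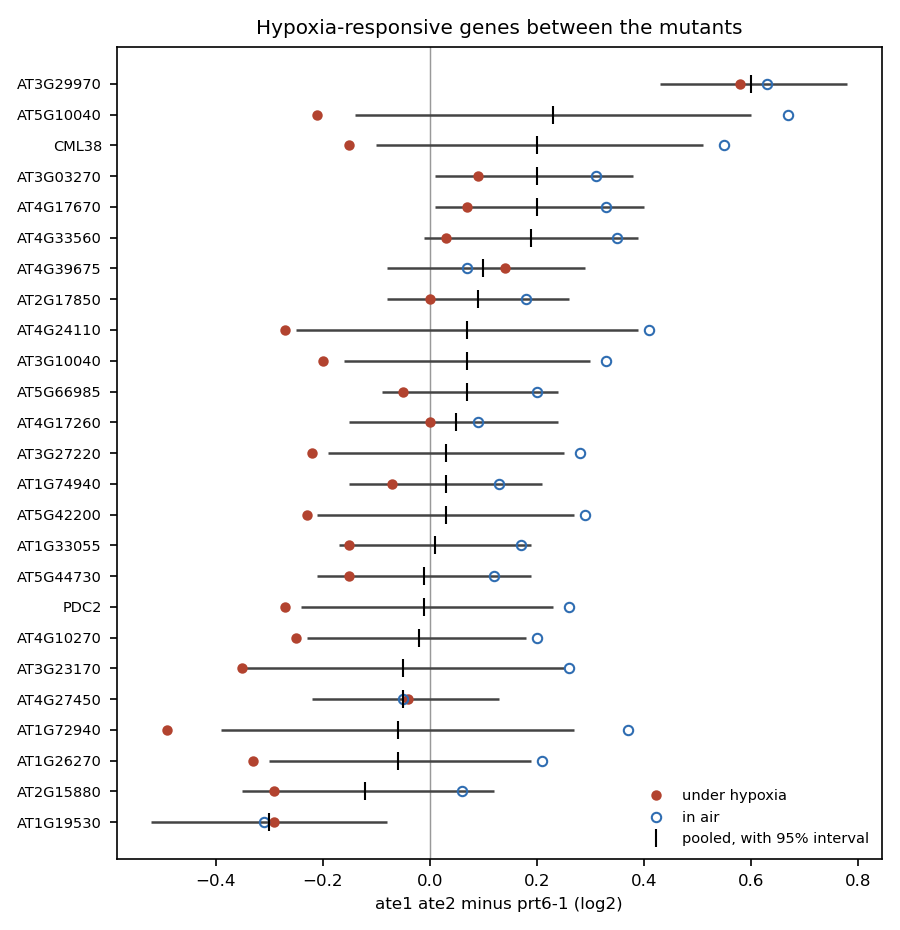
Difference between ate1 ate2 and prt6-1 (x axis, log2) for the 25 measured hypoxia-responsive genes (1 row each), under hypoxia (filled), in air (open) and pooled (tick with its 95% interval). The air points lie to the right of 0 in 23 rows and the hypoxia points to the left of or at 0 in 19, and AT3G29970 is the 1 gene called in the pooled comparison.

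Among late embryogenesis and dehydrin genes, which protect cells as they dry, 12 of 22 listed were measured and 1, COR15A, was called, with 0 lower, beside 0.299% higher and 0.255% lower of all probe sets. The median difference was 0.33, beside 0.001 over all probe sets, with a range of -0.15 to 1.14. The next largest was LEA18, which had 4.54 and 4.73 in ate1 ate2 under hypoxia, against 4.21 and 3.95 in prt6-1 and 7.06 and 7.24 in Col-0, and in air 6.55 and 4.41 in ate1 ate2, against 4.29 and 4.13 in prt6-1 and 6.50 and 6.98 in Col-0. One ate1 ate2 air array reached the Col-0 level while the other stayed near prt6-1, and the difference of 0.91 did not pass the test (SE 0.33, adjusted p = 0.348). AT3G17520, at 0.64 (adjusted p = 0.329), had 6.25 on the same ate1 ate2 air array, replicate 1, and 4.85 on replicate 2. Without ate1 ate2 air replicate 1 the list's median was 0.13.

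Seed reserve genes held 5 measured members of 20, and 0 were called in either direction by limma (median 0.11), beside 0.554% of all probe sets (median 0.001). ICL, isocitrate lyase of the glyoxylate cycle that turns stored oil into sugar, had 12.65 and 12.74 in ate1 ate2 under hypoxia, against 12.56 and 12.34 in prt6-1 and 8.32 and 7.86 in Col-0, and in air 12.99 and 12.94 in ate1 ate2, against 12.48 and 12.16 in prt6-1 and 7.27 and 8.02 in Col-0. ate1 ate2 lay above prt6-1 in both conditions by a small step beside the distance of both from Col-0, and the difference of 0.44 did not pass the test (SE 0.10, interval 0.22 to 0.67, adjusted p = 0.0995).

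Root hair genes had 3 measured members of 19. EXPA7, an expansin of growing root hairs, was called higher, beside 0.299% of all probe sets. It had 7.00 and 6.85 in ate1 ate2 under hypoxia, against 6.65 and 6.63 in prt6-1, and 7.90 and 8.07 in ate1 ate2 in air, against 7.30 and 7.47 in prt6-1. EXPA18, a related expansin, differed by 0.46 (SE 0.11, adjusted p = 0.123) and AT4G26010 by 0.47 (SE 0.10, adjusted p = 0.0854). The EXPA7 call (0.44, SE 0.09) lay at the threshold, with an adjusted p of 0.0499, and was lost without any 1 of the 8 arrays (adjusted p 0.0621 to 0.188).

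Anthocyanin and flavonoid genes had 5 measured members of 19, 0 of them called by limma, beside 0.554% of all probe sets, with a median difference of 0.27, beside 0.001 over all. DFR, the reductase that commits flavonoids to anthocyanin, had 6.10 and 6.61 in ate1 ate2 under hypoxia, against 5.98 and 5.90 in prt6-1 and 6.99 and 6.99 in Col-0, and in air 6.24 and 6.39 in ate1 ate2, against 5.27 and 6.0 in prt6-1 and 7.65 and 6.94 in Col-0. ate1 ate2 lay between prt6-1 and Col-0 in both conditions (0.55 relative to prt6-1, SE 0.15, adjusted p = 0.156). UF3GT, a glycosyltransferase of anthocyanin, differed by 0.34 (SE 0.07, adjusted p = 0.0614).

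Of 6 measured iron deficiency genes out of 20 listed, 1 was called, lower in ate1 ate2, beside 0.255% of all probe sets. BHLH101, a transcription factor induced when iron is short, had 6.68 and 6.44 in ate1 ate2 under hypoxia, against 7.62 and 7.52 in prt6-1 and 7.14 and 7.13 in Col-0, and in air 6.10 and 6.95 in ate1 ate2, against 7.35 and 7.17 in prt6-1 and 6.63 and 7.35 in Col-0. Col-0 lay between the mutants under hypoxia. The difference was -0.87 (SE 0.15, adjusted p = 0.025), lost without prt6-1 air replicate 1 or any 1 of the 4 hypoxia arrays of the mutants (adjusted p 0.0876 to 0.103) and in a fit of all 18 arrays (adjusted p = 0.0502). The other 5 differed by -0.34 to 0.35, and the list's median was -0.03.

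The 1 measured phosphate starvation gene of 16 listed, AT5G20790, was called lower in ate1 ate2, beside 0.255% of all probe sets. It had 10.53 and 10.64 in ate1 ate2 under hypoxia, against 10.82 and 10.88 in prt6-1 and 8.61 and 8.75 in Col-0. In air the transcript had 8.55 and 8.58 in ate1 ate2, against 9.58 and 9.45 in prt6-1 and 6.67 and 6.75 in Col-0. Both mutants stood above Col-0 in both conditions. The pooled difference was -0.60 (SE 0.12, adjusted p = 0.0499), lost without any 1 of the 8 arrays (adjusted p 0.0519 to 0.18). By condition the difference was -0.26 under hypoxia (adjusted p = 0.478) and -0.94 in air (adjusted p = 0.000535), and the test of the inequality between them did not pass (0.68, adjusted p = 0.513). The unadjusted 95% interval of this inequality, 0.37 to 0.99, left out 0, so the lack of a call does not show equal sizes.

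Of the remaining lists, 0 of 3 photosynthesis, 0 of 4 glucosinolate, 0 of 3 heat shock, 0 of 3 senescence, 0 of 1 defence and 0 of 1 clock genes were called by limma in the pooled comparison, beside 0.554% of all probe sets. The photosynthesis median was 0.10: LHCB4.1, an antenna protein of photosystem II, differed by 0.10 (adjusted p = 0.804) and LHCB4.2 by 0.23 (adjusted p = 0.387). BCAT4, an aminotransferase of glucosinolate synthesis, differed by -0.14 (adjusted p = 0.822), and the clock gene GI by 0.12 (adjusted p = 0.774). The jasmonate-responsive defensin PDF1.2 differed by -0.21 (adjusted p = 0.791), and the sugar transporter gene SAG29 by -0.20 (adjusted p = 0.686).

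Taken by condition, limma called 37 probe sets between the mutants under hypoxia (0.163%), 21 higher (0.0923%) and 16 lower (0.0703%) in ate1 ate2, and 29 in air (0.127%), 15 higher (0.0659%) and 14 lower (0.0615%). Of the large differences, QQS differed by -5.50 under hypoxia and -5.40 in air. AT5G05200 differed by 3.07 under hypoxia and 3.53 in air, and EXPB3 by 1.70 under hypoxia and 1.32 in air. COR15A differed by 0.84 under hypoxia (adjusted p = 0.0412) and 1.43 in air (adjusted p = 0.000445). The change between conditions was not called for any of these 4 (adjusted p 0.971 for QQS, 0.778 for AT5G05200, 0.811 for EXPB3 and 0.778 for COR15A). Its unadjusted 95% interval held 0 for QQS (-0.57 to 0.38). The interval left out 0 for AT5G05200 (-0.83 to -0.09), EXPB3 (0.02 to 0.75) and COR15A (-1.04 to -0.13). The lack of a call therefore does not show equal sizes.

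The test of the difference between the conditions called 1 probe set (0.00440%), that of AT4G08780, at 1.32 (adjusted p = 0.0355). It had 6.12 and 6.40 in ate1 ate2 under hypoxia, against 5.65 and 5.70 in prt6-1 and 5.52 and 5.59 in Col-0. In air it had 5.71 and 5.80 in ate1 ate2, against 6.43 and 6.57 in prt6-1 and 6.09 and 5.85 in Col-0. The order of the mutants was opposite in the 2 conditions: ate1 ate2 differed from prt6-1 by 0.58 under hypoxia (adjusted p = 0.0757) and by -0.74 in air (adjusted p = 0.0194). The call of the difference was lost without any 1 of the 4 prt6-1 arrays, without ate1 ate2 air replicate 1 and without ate1 ate2 hypoxia replicate 2 (adjusted p 0.124 to 0.385), and the call in air without either prt6-1 air array or ate1 ate2 air replicate 1 (adjusted p 0.108 to 0.216).

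A few single-gene probe sets were called in 1 condition and not in the pooled comparison. Under hypoxia APL3, a subunit of the enzyme that makes ADP-glucose for starch, had 5.12 and 5.35 in ate1 ate2, against 4.62 and 4.56 in prt6-1 and 4.77 and 4.93 in Col-0 (0.65, adjusted p = 0.0412). Under hypoxia AT5G03350 was higher (0.83, adjusted p = 0.0402) and AT2G36690 lower in ate1 ate2 (-0.94, adjusted p = 0.0478). In air AT5G24130 (0.74, adjusted p = 0.0118) and AT4G08410 (0.67, adjusted p = 0.0407) were higher in ate1 ate2. The change between conditions was not called for these 5 (adjusted p 0.358 for APL3, 0.763 for AT5G03350, 0.763 for AT2G36690, 0.0736 for AT5G24130 and 0.642 for AT4G08410). Its unadjusted 95% interval left out 0 for APL3 (0.5 to 1.2), AT2G36690 (-1.41 to -0.37) and AT5G24130 (-1.38 to -0.71). For these genes too the lack of a call does not show equal sizes. All 4 arrays behind the call mattered for APL3 and AT2G36690, which were lost without any 1 of the hypoxia arrays (adjusted p 0.121 to 0.505 and 0.136 to 0.381), and for AT4G08410, lost without any 1 of the air arrays (0.0623 to 0.342). AT5G03350 was lost without either prt6-1 hypoxia array or ate1 ate2 hypoxia replicate 2 (0.128 to 0.473), and AT5G24130 without either prt6-1 air array or ate1 ate2 air replicate 1 (0.0623 to 0.148).

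**Figure D4:**
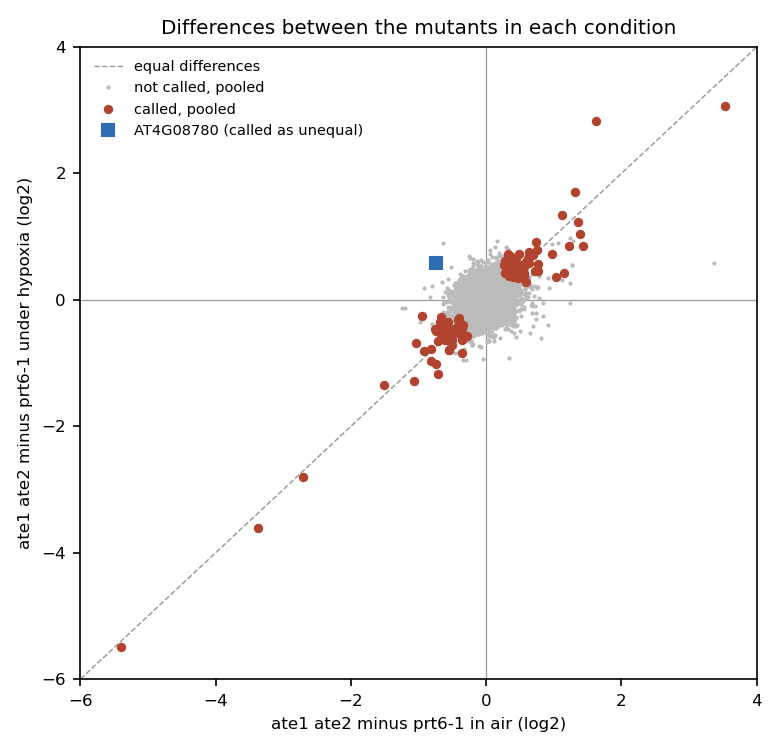
Difference between ate1 ate2 and prt6-1 under hypoxia (y axis, log2) against that in air (x axis, log2) for each probe set, with pooled calls in red and a dashed line of equal differences. Pooled calls lie to the upper right and lower left of the origin, and AT4G08780, the 1 probe set called as unequal between conditions, lies in the upper left at -0.74 in air and 0.58 under hypoxia.

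The seed arrays gave a second look at prt6-1 on RNA that none of the seedling values used, although ate1 ate2 seeds were not analysed here. In imbibed seeds limma called 934 of 22746 probe sets between prt6-1 and Col-0 (4.11%), 499 higher (2.19%) and 435 lower (1.91%) in prt6-1. Of the 126 probe sets called between the mutants in seedlings, 19 were called in seeds (15.1%). The seedling difference is ate1 ate2 minus prt6-1 and the seed difference prt6-1 minus Col-0, so a transcript high in prt6-1 alone has opposite signs in them. Signs were opposite for 54.8% of the 126 calls, beside 52.2% of all probe sets, and for 11 of the 19 called in seeds (57.9%), beside 520 of the 934 probe sets called in seeds (55.7%). Among the 13 calls of at least 2-fold, 3 were called in seeds, all 3 with the opposite sign. Without Col-0 seed replicate 1, 1554 probe sets were called in seeds (6.83%), 31 of the 126 among them (24.6%). Without any 1 of the other 5 seed arrays, 300 to 452 probe sets were called, with 7 to 11 of the 126 among them (5.56% to 8.73%).

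QQS had 9.83, 9.75 and 9.76 in prt6-1 seeds, against 4.79, 5.49 and 5.92 in Col-0 seeds. The groups were far apart, with QQS 20.8-fold higher in prt6-1 seeds (4.38, SE 0.24, adjusted p = 9.09e-05). AT1G43590 had 7.69, 7.34 and 7.46 in prt6-1 seeds, against 4.84, 4.46 and 5.20 in Col-0 seeds (2.67, SE 0.19, adjusted p = 0.00025). AT5G05200 had 7.30, 7.29 and 7.35 in prt6-1 seeds, against 9.13, 8.91 and 8.98 in Col-0 seeds (-1.70, SE 0.10, adjusted p = 0.000127). These 3 transcripts set prt6-1 apart from Col-0 in seeds in the same direction as in seedlings.

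EXPB3 and COR15A, which were also low in prt6-1 seedlings, did not differ detectably in seeds. The seed differences were 0.01 for EXPB3 (adjusted p = 0.981) and -0.16 for COR15A (adjusted p = 0.675). EXPB3 averaged 5.92 in prt6-1 seeds and 5.91 in Col-0 seeds, beside 10.29 in Col-0 seedlings. COR15A averaged 4.69 and 4.86 in these seeds, beside 6.30. Both were below the seed array medians (6.70 to 6.78). Whether a fall in prt6-1 seeds could be seen at such levels was not tested. AT4G28260, low in prt6-1 seedlings, differed by 0.40 in seeds (SE 0.10, adjusted p = 0.0659), and NRPC1, high in prt6-1 seedlings, by -0.26 (adjusted p = 0.399), signs opposite to those in seedlings that did not pass the test. AT3G29970 had 8.49, 8.20 and 8.77 in prt6-1 seeds, against 5.74, 5.58 and 4.98 in Col-0 seeds, so prt6-1 was higher in seeds as in seedlings (3.06, SE 0.21, adjusted p = 0.00025). AT5G20790 had 7.44, 7.71 and 7.84 in prt6-1 seeds, against 9.22, 9.77 and 9.81 in Col-0 seeds. It was lower in prt6-1 seeds (-1.94, SE 0.18, adjusted p = 0.00095), opposite to its difference from Col-0 in seedlings (2.49, adjusted p = 1.3e-11).

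**Figure D5:**
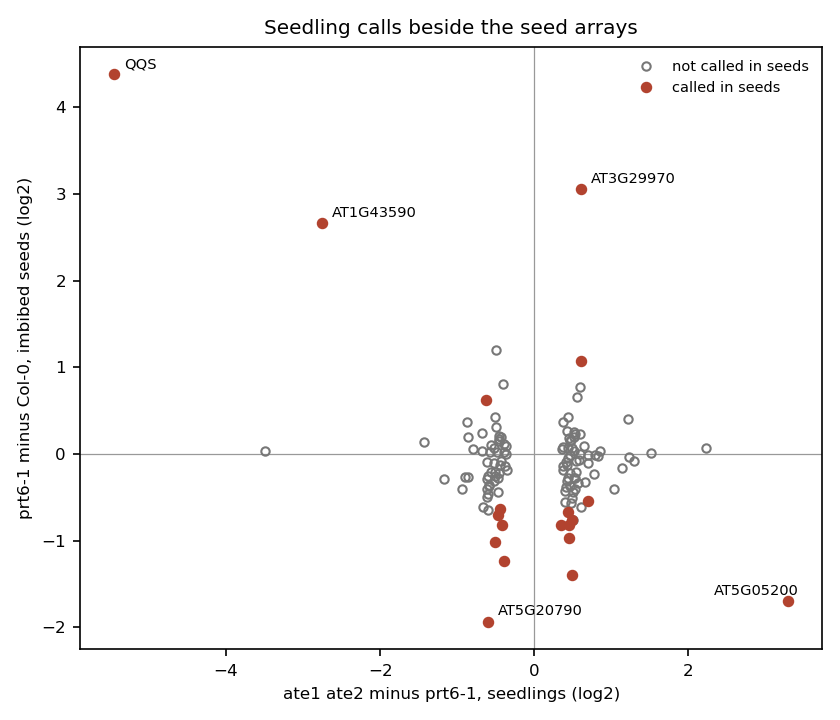
Difference between prt6-1 and Col-0 in imbibed seeds (y axis, log2) against the difference between ate1 ate2 and prt6-1 in seedlings (x axis, log2) for the 126 probe sets called in seedlings, filled where also called in seeds. QQS and AT1G43590 lie in the upper left and AT5G05200 in the lower right, while most of the other points lie near the horizontal line at 0.

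Each of the 5 nuclear chromosomes held named calls: 10 on chromosome 1 (0.288% of its single-gene probe sets), 8 on chromosome 2 (0.362%), 12 on chromosome 3 (0.435%), 9 on chromosome 4 (0.458%) and 20 on chromosome 5 (0.663%), beside 60 of 13513 in all (0.444%). The remaining call was ndhK, a plastid gene for a subunit of the NADH dehydrogenase-like complex. PRT6 and ATE1 lie on chromosome 5 and ATE2 on chromosome 3, in the gene order of assembly TAIR10.1. Within 100 protein-coding genes on each side, 1 of 102 single-gene probe sets was called near PRT6, 2 of 92 near ATE1 and 0 of 90 near ATE2. The call near PRT6 was AT5G01790, which differed from Col-0 by 0.11 in ate1 ate2 (adjusted p = 0.633) and -0.40 in prt6-1 (adjusted p = 0.0216). It had 7.31 and 7.39 in ate1 ate2 under hypoxia, against 6.74 and 6.63 in prt6-1. In air it had 7.84 and 7.57 in ate1 ate2, against 7.36 and 7.34 in prt6-1 (pooled difference 0.51, SE 0.09, adjusted p = 0.0265). It was lost without prt6-1 air replicate 1 or any 1 of the 4 hypoxia arrays of the mutants (adjusted p 0.0669 to 0.117).

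The calls near ATE1 were AT5G05200, described above, and AT5G05250, 5 protein-coding genes from it, which had 10.72 and 10.56 in ate1 ate2 under hypoxia, against 10.96 and 11.05 in prt6-1, and 9.82 and 10.02 in ate1 ate2 in air, against 10.31 and 10.32 in prt6-1. The 2 neighbours differed in opposite directions, AT5G05250 by -0.38 (SE 0.07, adjusted p = 0.0499), a call lost without any 1 of the 8 arrays (adjusted p 0.0502 to 0.186). Against Col-0, over both conditions, AT5G05200 differed by 0.04 in ate1 ate2 and -3.25 in prt6-1. AT5G05250 differed from Col-0 by -0.05 in ate1 ate2 (adjusted p = 0.786) and 0.33 in prt6-1 (adjusted p = 0.0112). Other pairs of called genes within 5 protein-coding genes of each other were AT1G67860 and AT1G67865 (0.52 and 0.70), EXPB3 and AT4G28260 (1.51 and 1.21), AT5G20740 and AT5G20790 (0.49 and -0.60), AT5G54020 and AT5G54040 (0.47 and 0.64), and AT3G28220 and AT3G28270 (0.52 and 0.43). Each of the 60 named genes had only 1 probe set annotated to it alone, so no second such probe set could be set beside these values. Whether probe sets with several gene names or none also measure these genes was not checked.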

How the data were processed

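RNA of whole seedlings and of seeds was hybridised to Affymetrix ATH1 arrays, per the labels. The deposited log2 values were made with RMA in affy, per the submitters' processing notes, which give no versions. Arrays give no read depth, and their number limits the precision. Of 22810 probe sets, 64 controls were left out. Gene names came from the platform annotation (13513 probe sets with 1 gene, 503 with several, 8730 with none), and 13484 single-gene names were updated through RefSeq TAIR10.1.

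The pooled comparison was fitted with limma 3.58.1 in R 4.3.3 on the 8 mutant arrays with condition as a covariate. Comparisons within a condition, their difference and the comparisons with Col-0 came from 1 fit of the 12 seedling arrays, and the seed comparison from the 6 seed arrays. Tests were two-sided, adjusted by Benjamini-Hochberg over 22746 probe sets, and called at an adjusted p under 0.05. On simulated data for the pooled comparison (22746 probe sets), 80.6% of 67 changes of 0.5 log2 units, 100% of 67 changes of 1 and 100% of 66 changes of 2 were called, and 6.5% of calls were false. The simulated noise was independent between arrays and probe sets. Deviations that many probe sets share on an array were not simulated, so these rates may not hold for the real arrays.

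Named genes were single-gene probe sets: up to 15 of the largest rises and 15 of the largest falls among pooled calls with separated genotypes, up to 4 called members of each of the 16 gene lists (otherwise the 2 largest differences), all measured N-end rule genes, up to 8 calls of the difference between conditions, up to 5 calls found in only air or only hypoxia, and calls within 100 genes of PRT6, ATE1 and ATE2. PDC2, CML38, LEA18, AT3G17520, RCA, EXPA18, AT4G26010, ndhK and the neighbours listed at the end fall outside this rule and were chosen after their values were seen. The members and lists were chosen with earlier results of these data known. Alternatives changed the arrays fitted, the normalization, the filter, the prior, the thresholds and the replicate block, and left out each array in turn.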

Additional observations from a re-analysis of the deposited data

Results flagged for a closer look

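AT4G08780 stood out because the difference between ate1 ate2 and prt6-1 was unequal in the 2 conditions by a direct limma test of that inequality, at 1.32 log2 units (adjusted p = 0.0355). ate1 ate2 was above prt6-1 under hypoxia by 0.58 (adjusted p = 0.0757) and below it in air, with a difference of -0.74 (adjusted p = 0.0194). All seedling levels lay between 5.52 and 6.57. It was the only call among the 22746 probe sets tested for this inequality, and it was lost without 6 of the 8 mutant arrays, each left out in turn (adjusted p 0.124 to 0.385).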

How the results depend on the processing

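The pooled comparison gave 126 calls. It gave 51 in a fit of all 18 arrays, 52 with single-gene probe sets only, 249 with an intensity trend, 210 with array weights, 33 at an adjusted p under 0.01 and 13 at 2-fold. Leaving out 1 array gave 35 (without ate1 ate2 hypoxia replicate 1) to 165 (without ate1 ate2 air replicate 1). Within 1.5 times the count were 161 in a fit of the 12 seedling arrays and 111 with cell means on the 8 mutant arrays, 106 after quantile renormalization and 109 after median centring, which gave 47 higher and 62 lower (43.1% higher, beside 54%), 141 without the 33.3% dimmest probe sets and 116 with a robust prior. In air, 29 calls became 12 with all 18 arrays, 15 with single-gene probe sets, 60 with the trend, 13 at 0.01 and 12 at 2-fold, and 12 to 92 with 1 array left out. Under hypoxia, 37 calls became 13 with all 18 arrays, 21 with the 8 mutant arrays, 6 with single-gene probe sets, 87 with the trend, 120 with array weights, 12 at 0.01 and 11 at 2-fold, and 8 to 15 with 1 array left out; 56.8% were higher, beside 43.5% after quantile renormalization and 35.6% after median centring. For the difference between conditions, the 1 call became 0 with all 18 arrays, with the 8 mutant arrays, after quantile renormalization and at 0.01, 3 after median centring and 3 with the trend, and 0 to 9 with 1 array left out. The 934 seed calls became 300 to 1554 with 1 array left out. Fewer probe sets or arrays entered some of these fits, and the cause of the other shifts was not tested.

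Whether replicate numbers paired the samples was unclear. Deviations of same-numbered replicates from their group means correlated at -0.23 to 0.26 over 6 pairs of groups, 3 of them over 0.1. With the replicate block there were 136 pooled calls, 117 of them among the 126. Under hypoxia there were 76 calls, beside 37 without the block, and in seeds 535, beside 934. The calls of AT5G20790 (adjusted p = 0.0554), EXPA7 (adjusted p = 0.0557) and AT5G05250 (adjusted p = 0.0554), at 0.0499 without the block, were among those lost with it.

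Differences close to 0 that were never called changed sign in some fits. ATHSP22.0 was -0.01 with array weights and -0.04 to 0.07 with 1 array left out, beside 0.01. AT4G08780, pooled, was -0.27 to 0.08 with 1 array left out, beside -0.08. With 1 array left out, MAP1D ranged from -0.04 to 0.03, PDF1.2 ranged from -0.31 to 0.01, BCAT4 from -0.2 to 0.01 and MAP1B from -0.04 to 0.11.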
